A study of Mus musculus with 4 samples.

Results

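The cells described here are 328 of the 26435 cells kept in 4 single-cell RNA-seq libraries of mouse mammary tumours, or 1.24%, chosen because they carried transcripts of Cd72 and Slamf9 together with transcripts used to mark macrophages. The choice was made on raw UMIs (unique molecular identifiers, which count captured RNA molecules) in cells kept at 200 or more genes with mitochondrial transcripts below 20%. A chosen cell had at least 3 UMIs of Csf1r, Cd68 and Adgre1 in sum, at least 3 of Cd72 and Slamf9 in sum, and none of Cd3d, Cd3e or Cd3g. It also had fewer than 3 UMIs of Arg1, fewer than 5 of Mmp12 and Mmp13, fewer than 3 of Vcam1, Ccl8 and Pla2g2d, fewer than 3 of Retnla, Ear2, Lpl and Dcstamp, and fewer than 2 of Mki67 and Top2a. These limits were set from the same cells, so the levels of those genes describe the choice and are not findings. The chosen cells numbered 46 in the Control library, 63 in Phenformin, 83 in PolyIC and 136 in Combination.

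The tumours were orthotopic grafts of the MT4788 mammary tumour line in wild-type mice of the matching FVB strain. All 4 groups share the line, the strain, the genotype, dissociation on day 4, magnetic enrichment of CD45+ leukocytes (most of them CD31-EpCam-CD45+ cells, per the labels) and 10000 cells submitted for 3′ droplet sequencing. Control received saline and PBS, and Phenformin received saline and phenformin, a biguanide that inhibits mitochondrial complex I. PolyIC received poly I:C, a synthetic double-stranded RNA that activates Toll-like receptor 3 and RNA helicases, with PBS, and Combination received poly I:C and phenformin. Each treatment is 1 library, so no difference below has a replicate check and none was tested. The intervals given are 95% intervals that cover counting error only, and leave out the spread between cells and between tumours. The cells were enriched for leukocytes, so shares are of the enriched cells and not of the tumour, and fewer cells of a kind and less RNA per cell cannot be told apart in summed counts.

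Cd72 is an inhibitory C-type lectin best known from B cells, where it recruits the phosphatase encoded by Ptpn6, and it is also found on macrophages and dendritic cells. Slamf9 is a member of the SLAM family of immune cell receptors and is known from macrophages and from plasmacytoid dendritic cells. Cxcl13, named with them as a marker of these cells, is the chemokine that draws B cells and follicular T cells to lymphoid follicles. In tumours, macrophages clear dying cells and handle their lipids, make the C1q complex of complement, and can hold back or recruit lymphocytes through checkpoint ligands and chemokines. Plasmacytoid dendritic cells are specialised for type I interferon production and carry Siglech, Ccr9, Spib and Ly6d.

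Cd72 (ENSMUSG00000028459) lies on the minus strand at chr4:43446462-43454628 of GRCm38, and Slamf9 (ENSMUSG00000026548) on the plus strand at chr1:172475358-172478575, by the GENCODE annotation of that build. Their promoters are shown because these 2 genes define the choice. At least 3 UMIs of each were found together in 2, 2, 7 and 34 of the chosen cells in Control, Phenformin, PolyIC and Combination. Each line gives the 240 bases that end 11 bases before the RefSeq start site (GRCm38.p6), 5′ to 3′ on the gene's own strand, from chr4:43454637-43454876 for Cd72 and chr1:172475110-172475349 for Slamf9. Capitals mark the 7 letters AGGAAGT, the core of many sites bound by ETS-family factors such as the macrophage factor PU.1, or the same letters on the opposite strand.
Cd72: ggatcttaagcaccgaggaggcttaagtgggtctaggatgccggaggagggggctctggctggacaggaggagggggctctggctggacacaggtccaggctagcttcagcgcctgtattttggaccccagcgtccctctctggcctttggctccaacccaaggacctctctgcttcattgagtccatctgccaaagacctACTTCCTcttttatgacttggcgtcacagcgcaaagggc
Slamf9: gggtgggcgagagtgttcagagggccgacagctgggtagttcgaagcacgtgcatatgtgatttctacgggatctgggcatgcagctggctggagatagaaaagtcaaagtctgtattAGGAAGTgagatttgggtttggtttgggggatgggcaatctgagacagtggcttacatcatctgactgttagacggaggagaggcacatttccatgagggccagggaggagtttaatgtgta

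The letters AGGAAGT stand once in each window, from 49 to 43 bases before the start on the strand opposite to Cd72 and from 132 to 126 bases before the start on the strand of Slamf9. Searched on both strands in the same window, they were present in 2406 of 32851 RefSeq promoters (7.32%). The motif was picked after the windows were read, and a match is a description of the letters and not of a bound site.

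The libraries held 59071838 UMIs in Control, 62744050 in Phenformin, 77488625 in PolyIC and 72704517 in Combination, and 6095, 5453, 6619 and 8268 cells passed the filter. The chosen cells carried 407399, 651817, 792617 and 1217110 UMIs in the same order, and their median depth was 9054, 9715, 8809 and 8336 UMIs. Pairs of libraries shared between 11 and 29 cell barcodes. Scrublet, a doublet caller, marked 109 and 77 cells in Control and Phenformin but 1 cell in each library with poly I:C, where it therefore did not work, and it marked none of the chosen cells.

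The cells did not match their label as one kind of macrophage. In every library they fell into 2 kinds by Siglech and Ccr9, which the choice did not use (Siglech at chr7:55768178-55778925 and Ccr9 at chr9:123678439-123784330, both plus strand). Of the 328 cells, 118 carried at least 10 UMIs of Siglech and Ccr9 together and the other 210 carried 0 or 1. The lowest count among the carriers was 17 UMIs in Control, 15 in Phenformin, 12 in PolyIC and 10 in Combination, with medians of 34, 33.5, 36 and 32. The split at 3 UMIs was made after the values were seen, and no cell lay near it. The carriers were 17 of 46 cells in Control, 24 of 63 in Phenformin, 36 of 83 in PolyIC and 41 of 136 in Combination, or 37.0%, 38.1%, 43.4% and 30.1%.

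Cells with Siglech and Ccr9 carried other genes of plasmacytoid dendritic cells and little of the macrophage set. Levels are given as CPM, counts per 1000000 UMIs summed over the cells of a library. Siglech stood at 2207 CPM in Control, 2301 in Phenformin, 2265 in PolyIC and 2304 in Combination, and Klk1, a kallikrein protease, at 1918, 2263, 2625 and 3156 CPM. Spib, a transcription factor of plasmacytoid dendritic cells, was at 473, 311, 335 and 468 CPM there and between 0 and 4.09 CPM in the other chosen cells. Ly6d, a surface protein of early lymphoid cells, was at 4586, 3630, 2050 and 2313 CPM with Siglech and at no more than 7.19 CPM without it.

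The macrophage genes of the rule were split the same way. Csf1r, the receptor for the macrophage growth factor CSF-1, stood between 388 and 556 CPM in cells without Siglech and Ccr9 and between 0 and 61.6 CPM in those with them. Adgre1, which encodes F4/80, was between 113 and 226 CPM without and between 0 and 9.23 CPM with them. Cells with Siglech therefore passed almost wholly through Cd68, a lysosomal protein of many myeloid cells, at 400 to 537 CPM. The complement gene C1qa was at 1214, 2287, 2401 and 4456 CPM without Siglech and at 24.6, 38.3, 83.1 and 53.1 CPM with it.

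Lists of marker genes are given without the genes used to choose or to split the cells. The 9 dendritic cell markers other than Siglech and Ccr9 summed to between 206 and 290 CPM in cells with Siglech and to between 64.1 and 144 CPM in cells without, and most of the difference was Flt3, a receptor of dendritic cell precursors, at 139 to 246 against 0 to 4.79 CPM. The 11 macrophage markers other than Csf1r, Cd68 and Adgre1 summed to between 10277 and 18033 CPM without and to between 1906 and 4032 CPM with Siglech, against 16134 to 26177 CPM in the other cells of the macrophage gate. T or NK cell markers summed to between 1266 and 1739 CPM with Siglech, much of it Cd8b1 (511 to 862 CPM), Il7r (401 to 559 CPM) and Cd8a (262 to 436 CPM), and to between 49.1 and 221 CPM without, while Ncr1 and Gzma were at 0 in both. B cell markers stayed between 10.7 and 135 CPM in both kinds with Pax5 at 0. The 9 neutrophil markers summed to between 51.3 and 167 CPM in cells without Siglech, and to 12.3, 0, 2512 and 487 CPM in Control, Phenformin, PolyIC and Combination cells with it. S100a9 and S100a8 made up 1773 and 622 CPM of the PolyIC sum, while Ly6g and Ngp were at 0 in all chosen cells. Non-classical monocyte markers summed to 539, 290, 312 and 309 CPM without Siglech and to 449, 298, 339 and 325 CPM with it. In the other macrophages they summed to 280, 259, 219 and 323 CPM. Endothelial markers summed to 98.4 to 233 CPM without Siglech, 252 to 381 with it and 76.3 to 111 in the other macrophages. Epithelial markers summed to 57.5 to 306, 148 to 252 and 103 to 166 CPM in that order. Fibroblast markers reached at most 15.0 CPM in either kind.

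The 2 genes behind the choice marked the 2 kinds unequally. Cd72 was at 486, 405, 588 and 852 CPM in Control, Phenformin, PolyIC and Combination cells without Siglech, and at 18.4, 25.6, 64.6 and 56.2 CPM in cells with it. Slamf9 was at 127, 122, 124 and 336 CPM without Siglech and at 498, 494, 539 and 737 CPM with it. At least 3 UMIs of both genes were found together in 2 of 29 Control cells without Siglech, 2 of 39 in Phenformin, 6 of 47 in PolyIC and 34 of 95 in Combination. Among the 118 cells with Siglech this was seen in 1, from PolyIC.

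**Figure D1:**
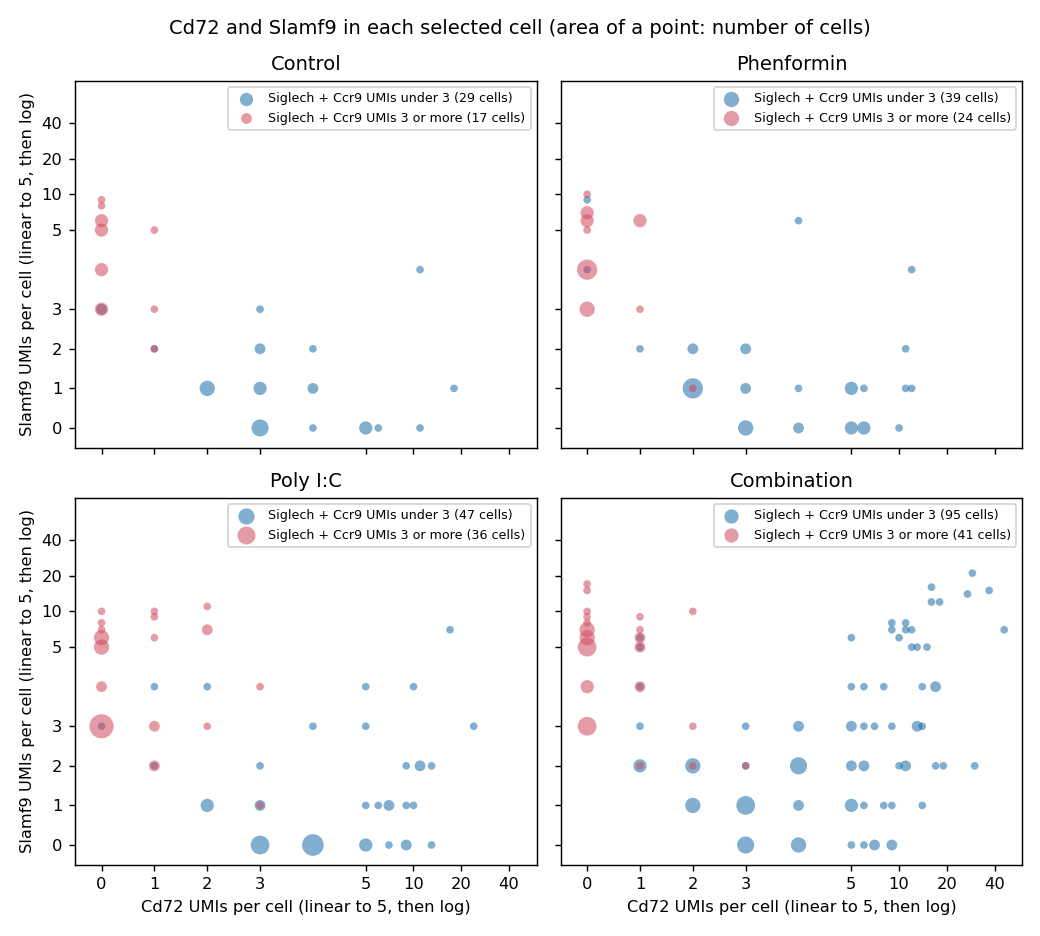
Each point is a combination of Cd72 UMIs (horizontal axis) and Slamf9 UMIs (vertical axis) in the chosen cells of 1 library, both axes linear to 5 and logarithmic above, with the area of a point giving the number of cells and colour giving the sum of Siglech and Ccr9 UMIs. Cells with Siglech and Ccr9 line the vertical axis, with Slamf9 and little Cd72. Cells high in both genes lie mostly in the Combination panel, where 34 of the 95 cells without Siglech carried at least 3 UMIs of each.

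How often both genes were seen in the chosen cells is fixed by the choice and is given as a description, with T or NK cells of the same libraries beside it. A UMI of Cd72 was found in 65.2%, 66.7%, 71.1% and 79.4% of the chosen cells in Control, Phenformin, PolyIC and Combination, and in 1.99%, 1.53%, 1.97% and 2.94% of T or NK cells. Slamf9 was found in 76.1%, 79.4%, 74.7% and 89.0% of the chosen cells and in 1.25%, 0.965%, 0.812% and 1.53% of T or NK cells. Median depth was 6608, 7258, 5750 and 4974.5 UMIs in the T or NK cells, below that of the chosen cells.

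Cxcl13, the chemokine given as the third marker, was nearly absent from the chosen cells. Control, Phenformin and PolyIC cells held no Cxcl13 UMI among 46, 63 and 83 cells, and Combination cells held 17 UMIs in 4 of 136 cells (2.94%, exact binomial interval 0.807% to 7.36%). Before the limits on the other macrophage genes were applied, cells chosen by Cd72 and Slamf9 held 82, 455, 80 and 866 Cxcl13 UMIs. Of these, 82, 455, 80 and 687 UMIs lay in cells over the limit on Vcam1, Ccl8 and Pla2g2d. Most of these UMIs of Cxcl13 (chr5:95956951-95961068, plus strand) thus lay in cells that the rule sets aside. Before the limits they came from 8, 6, 13 and 51 cells. All kept cells held 292, 542, 174 and 2575 Cxcl13 UMIs, of which 95, 484, 101 and 1260 lay in cells that met the macrophage conditions.

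The limits set aside most cells that met the threshold on Cd72 and Slamf9. Before them, 406, 510, 813 and 1043 cells met the macrophage conditions with at least 3 UMIs of the 2 genes in sum. Of these, 304, 382, 683 and 863 were over the limit on Vcam1, an adhesion molecule, Ccl8, a chemokine, and Pla2g2d, a secreted phospholipase. That limit alone removed 132, 140, 344 and 558 cells. Just inside the threshold, 16, 17, 23 and 19 of the chosen cells had exactly 3 UMIs of Cd72 and Slamf9, and just outside it 27, 23, 41 and 37 cells had exactly 2.

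The chosen cells made up a larger share of the Combination library than of the Control library. They were 46 of 6095 cells in Control (0.755%, exact binomial interval 0.553% to 1.01%), 63 of 5453 in Phenformin (1.16%, 0.889% to 1.48%), 83 of 6619 in PolyIC (1.25%, 1.0% to 1.55%) and 136 of 8268 in Combination (1.64%, 1.38% to 1.94%). The Control and Combination intervals do not overlap, and the Phenformin and PolyIC values differ by less than their counting error. Median depth over all kept cells was 6543, 8312, 8430 and 5901.5 UMIs in the same order. When 5000 UMIs were drawn from each of the 3672, 3725, 4550 and 4641 cells that reached that depth, and shallower cells were left out, the shares were 0.817%, 1.18%, 1.27% and 2.54%.

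Counted against the cells that met the macrophage conditions, the share was 2.86% in Control, 3.45% in Phenformin, 4.21% in PolyIC and 6.74% in Combination. Cells without Siglech and Ccr9 were 0.476%, 0.715%, 0.710% and 1.15% of kept cells, and cells with them 0.279%, 0.440%, 0.544% and 0.496%. The higher share in Combination than in PolyIC lay in the cells without Siglech. All cells with at least 3 UMIs of Siglech and Ccr9 in the libraries numbered 189, 177, 167 and 194, and 8.99%, 13.6%, 21.6% and 21.1% of them met the rule.

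**Figure D2:**
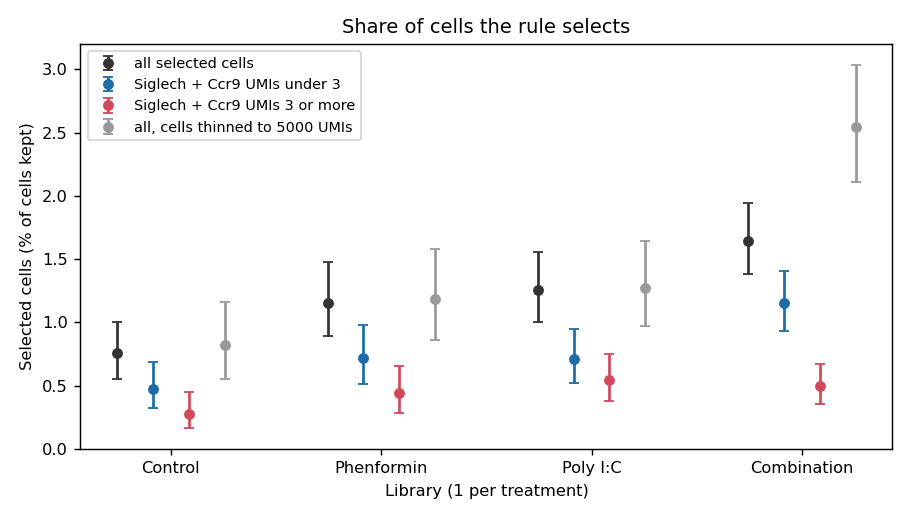
The vertical axis gives the chosen cells as a percentage of the cells kept in each library (horizontal axis, 1 library per treatment), for all of them, for those with under 3 and with 3 or more UMIs of Siglech and Ccr9, and for all cells thinned to 5000 UMIs. Bars are 95% exact binomial intervals, and the share for all of them runs from 0.755% in Control to 1.64% in Combination.

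The levels of Cd72 and Slamf9 can be read without the choice over all cells that met the macrophage conditions. Cd72 was at 156, 140, 222 and 395 CPM there in Control, Phenformin, PolyIC and Combination. Slamf9 was at 65.3, 55.2, 66.9 and 145 CPM. Combination was the highest library for both genes, and Phenformin was the lowest for both.

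The cells were next set beside the other cells that met the macrophage conditions, within each library. A gene was called higher or lower at a ratio of at least 1.5 either way with an interval that leaves out 1, among genes with at least 50 CPM and 30 UMIs on the higher side, and only where this held in all 4 libraries. As the choice was made by expression, this is a description and not a test. Among all chosen cells, 167 of 2690 genes were higher (6.21%) and 108 lower (4.01%), led by genes of the cells with Siglech: Klk1 was 15.3 to 43.0 times and Siglech 15.3 to 50.9 times the level of the other cells. Cells with Siglech alone had 295 of 1919 genes higher (15.4%) and 553 lower (28.8%), among them 17 of 21 genes of glycolysis and hypoxia, 10 of 11 complement genes and all 8 genes compared of MHC class II.

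Without the cells that carried Siglech and Ccr9, almost none of the genes compared was called higher. Of 1994 genes outside the rule, 1 was higher in all 4 libraries (0.0502%) and 36 were lower (1.81%). These 2 counts are not on an equal footing, as a call needed 30 UMIs on the higher side in every library. In Control the cells without Siglech held 244729 UMIs, against 15278183 in the other macrophages. A gene at a low level could therefore be called lower but not higher. The same limit holds for the counts over all chosen cells and over cells with Siglech. The gene that was higher, Dusp2, encodes a phosphatase of MAP kinases and stood at 208, 209, 244 and 249 CPM against 113, 118, 117 and 129 CPM in the other macrophages. Mrc1, the mannose receptor, stood at 147, 74.3, 137 and 83.6 CPM against 485, 501, 504 and 403 CPM. Fabp5, a fatty acid carrier, was at 131, 249, 272 and 145 CPM against 684, 799, 1468 and 1132 CPM. Others of the lowest ratios were F7, a coagulation factor, Mt2, a metallothionein, and Timp2, a metalloproteinase inhibitor. By list, 5 of 12 genes of alternative activation (Clec10a, F13a1, Mgl2, Mrc1 and Stab1), 5 of 23 of lipid handling and lysosome (Apoe, Cd63, Ctsd, Ctsl and Fabp5) and 4 of 12 chemokines (Ccl2, Ccl6, Ccl9 and Ccl12) were lower, and none of any list was higher.

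Levels between treatments were compared as ratios of summed CPM with the same call, over genes outside the rule. The number of genes called, as a share of the genes compared, is given first for each pair of libraries, and list counts are read against it. Since 118 of the 328 cells were of the kind with Siglech, a value is also given for the others where it moves by over 1.5 times or loses its call.

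Phenformin was compared with Control to ask what the complex I inhibitor alone goes with. Of 2946 genes, 189 were higher (6.42%) and 121 lower (4.11%), and in cells without Siglech 176 of 1981 were higher (8.88%) and 86 lower (4.34%). Complement C1q, the Fc receptor Fcgr1, the lipid carrier Apoe and interferon-stimulated genes were higher in Phenformin cells, and the chemokine list had 5 of 9 genes higher and 2 lower, Ccl6 and Ccl9, with a median log2 ratio of 0.62 (3 of 8 higher and 2 lower in cells without Siglech). The type I interferon list had 10 of 21 genes higher and none lower, with a median log2 ratio of 0.70 beside -0.02 over all genes. With cells without Siglech alone the list had 7 of 19 genes higher and a median of 0.76, while in cells with Siglech the median was -0.04.

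Ms4a4c, a membrane protein induced by interferon, stood at 172 CPM in Control, 457 in Phenformin, 616 in PolyIC and 753 in Combination, and its Phenformin over Control ratio was 2.66 (interval 2.04 to 3.50). Rsad2, which encodes the antiviral enzyme viperin, was at 19.6, 138, 24.0 and 29.6 CPM, but 56% of its Phenformin UMIs came from 1 cell. Ifih1, the cytosolic RNA sensor MDA5, was at 14.7, 66.0, 68.1 and 45.2 CPM, and Xaf1, a pro-apoptotic interferon target, at 14.7, 56.8, 69.4 and 60.8 CPM. In all 4 genes Control was the lowest library. The interferon-inducible GTPases, which defend the cell against intracellular microbes, went the other way in Phenformin: 2 of 8 were lower, Iigp1 (172 CPM in Control and 93.6 in Phenformin) and Igtp (78.5 and 43.0 CPM; not compared without Siglech cells, where it fell under the minimum), and the list's median log2 ratio was -0.49.

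C1qa, C1qb and C1qc, the chains of C1q, were 2.0, 2.17 and 2.05 times as high in Phenformin as in Control. Cfb, complement factor B, was at 34.4 CPM in Control and 117 in Phenformin, so 4 of 11 complement genes were higher and none lower. Fcgr1, the high-affinity IgG receptor, was at 76.1 and 270 CPM, a ratio of 3.55 (interval 2.41 to 5.38), and Clec4n, the lectin Dectin-2, at 61.4 and 181 CPM. Apoe was at 334 and 1244 CPM (ratio 3.73, interval 3.1 to 4.50), and 7 of 22 genes of lipid handling and lysosome were higher. Ccl5, a T cell chemokine, was at 184 and 720 CPM, but its ratio of 3.91 went to 0.610 when members were chosen again after thinning to 5000 UMIs.

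Inflammatory genes of the list were higher in 6 of 11 cases and lower in none. Nos2, inducible nitric oxide synthase, was at 12.3 CPM in 3 Control cells and at 93.6 CPM in 14 Phenformin cells. Il1b, interleukin 1 beta, was at 280 and 586 CPM, and its ratio of 2.09 went to 0.673 in the same thinned choice. Of genes that carry growth and matrix signals, Vegfa was at 63.8 and 190 CPM, Tgm2, a transglutaminase, at 290 and 614 CPM, and Fn1, fibronectin, at 4.91 and 62.9 CPM. Without the top cell of each library Fn1 was at 47.3 CPM in Phenformin, under the minimum, and without the limits its ratio was 0.944. Inhba, the activin A subunit, had no UMI in Control and 59.8 CPM in 9 Phenformin cells, at least 8.13-fold higher against a floor of 3 counts in the Control library; 41% of its Phenformin UMIs lay in 1 cell, without which it was under the minimum.

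Among the genes lower in Phenformin than in Control were 2 of the 9 chemokines compared. Ccl6 was at 290 CPM in Control and 41.4 in Phenformin, and Ccl9 at 162 and 44.5 CPM; both encode CC chemokines of myeloid cells. Hmox1, heme oxygenase, was at 233 and 115 CPM (a ratio that went to 1.24 when the limits on the other macrophage genes were not applied), Tlr7, the endosomal sensor of single-stranded RNA, at 113 and 55.2 CPM, and Mrc1 at 88.4 and 52.2 CPM. Without the Siglech cells Tlr7 was under the minimum. Epcam, an epithelial gene, was at 125 and 15.3 CPM, with 84% of its Control UMIs in 1 cell. Nuclear genes of complex I, the target of phenformin, were higher in 4 of 36 cases and lower in none; without the Siglech cells 1 of 34 was higher and 1 lower.

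PolyIC was compared with Control to ask what the RNA mimic alone goes with. Of 2846 genes, 215 were higher (7.55%) and 292 lower (10.3%), and with TMM scaling, which sets the libraries' middle genes level, 330 were higher and 159 lower. In cells without Siglech 195 of 1895 were higher (10.3%) and 168 lower (8.87%). Chemokines, genes of lipid handling, of Fc receptors and phagocytosis, inflammatory genes and interferon-stimulated genes were higher in PolyIC cells. The chemokine list had 10 of 14 genes higher and 1 lower, with a median log2 ratio of 1.41 beside -0.11 over all genes. That median was -0.01 when the limits on the other macrophage genes were not applied. Interferon-stimulated genes were higher in 9 of 18 cases and lower in none (median 0.62), but the median was -0.20 when members were chosen again after thinning to 5000 UMIs.

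Cxcl10, which draws T cells through Cxcr3, was at 29.5 CPM in Control, 56.8 in Phenformin, 174 in PolyIC and 107 in Combination. Its UMIs came from 3, 7, 20 and 22 cells. Cxcl2, which draws neutrophils, was at 454, 805, 1981 and 270 CPM, with 38% of the PolyIC UMIs in 1 cell, and Cxcl1 was at 4.91, 0, 56.8 and 1.64 CPM. PolyIC was the highest library for all 3. Ccl2 and Ccl3 were also called, at 109 and 136 CPM in PolyIC against 2.46 and 7.36 in Control, but 88% and 87% of those UMIs lay in 1 cell each, and without the top cell of each library neither gene, nor Cxcl1, reached the level needed for a call.

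Apoe was at 3488 CPM in PolyIC against 334 in Control (ratio 10.4, interval 8.80 to 12.5; 11.5 in cells without Siglech). Trem2, a lipid-sensing receptor, was at 22.1 and 103 CPM, Abca1, a cholesterol exporter, at 31.9 and 150 CPM, and Spp1, osteopontin, at 22.1 and 167 CPM. In all, 8 of 23 genes of lipid handling and lysosome were higher and 1 lower. Clec4n was at 61.4 and 385 CPM, Fcgr1 at 76.1 and 274 CPM, and 8 of 16 genes of Fc receptors and phagocytosis were higher and 1 lower. Chil3, a chitinase-like protein of alternatively activated macrophages, was at 7.36 CPM in 1 Control cell and at 90.8 CPM in 24 PolyIC cells. Ecm1, a matrix protein, was at 27.0 and 305 CPM.

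Inflammatory genes were higher in 7 of 12 cases and lower in 1. Nos2 was at 125 CPM in PolyIC (ratio over Control 10.2, interval 4.22 to 32.0), Irg1, which makes itaconate, at 121 against 27.0 CPM, and Il1b at 811 against 280 CPM, although Il1b stood at a ratio of 0.630 when members were chosen again after thinning. Irf7, the master regulator of type I interferon, was at 189, 425, 535 and 647 CPM in the 4 libraries, and in cells with Siglech alone at 203, 290, 545 and 749 CPM. In iron handling, Hmox1 was at 431 against 233 CPM and Fth1, the ferritin heavy chain, at 29116 against 17887 CPM. Hilpda, a lipid droplet protein induced by hypoxia, was at 334 against 78.5 CPM.

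Some PolyIC calls rested on the cells with Siglech. Hspa1b, a heat shock chaperone, was at 7.36 CPM in Control and 122 in PolyIC, from 8 PolyIC cells. Dnajb1, its co-chaperone, was at 49.1 and 138 CPM over all chosen cells, at 49.0 and 51.3 CPM without Siglech, and at 49.2 and 262 CPM with it. S100a9, a neutrophil alarmin, was at 17.2 and 789 CPM, with 80% of the PolyIC UMIs in 1 cell, and without the Siglech cells the ratio went from 45.9 to 3.66. Lower in PolyIC were H2-Eb1, an MHC class II chain (160 and 77.0 CPM), the monocyte chemokine receptor Ccr2 (206 and 103 CPM) and Hif1a (388 and 230 CPM). H2-Eb1 was the only 1 of 8 MHC class II genes called, and that list's median log2 ratio was 0.03.

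Combination was compared with Control for both agents together. Of 2904 genes, 236 were higher (8.13%) and 337 lower (11.6%), and with TMM scaling 375 were higher and 220 lower. In cells without Siglech 220 of 2282 were higher (9.64%) and 154 lower (6.75%). The chemokine Ccl5, all 3 chains of C1q, Apoe and interferon-stimulated genes were higher, and genes of classical monocytes were lower. Interferon-stimulated genes were higher in 11 of 19 cases and lower in none, with a median log2 ratio of 0.81 beside -0.07 over all genes; in cells without Siglech they were higher in 8 of 23 cases with a median of 0.61.

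Ccl5, which draws T and NK cells (chr11:83525778-83530518, minus strand), was at 184 CPM in 19 Control cells, 720 in 29 Phenformin cells, 493 in 40 PolyIC cells and 2173 in 90 Combination cells. Its Combination over Control ratio was 11.8 (interval 9.38 to 15.1), and 9.51 in cells without Siglech. C1qa (chr4:136895917-136898803, minus strand) was at 739, 1477, 1451 and 3297 CPM, a ratio of 4.46 (interval 3.97 to 5.03), and C1qb and C1qc had ratios of 4.51 and 4.50. For all 4 genes Combination was the highest library and Control the lowest, and the intervals of those 2 libraries were far apart. In cells without Siglech the C1qa ratio was 3.67. Its PolyIC over Control ratio of 1.96 went to 0.920 (interval 0.759 to 1.12) when cells with other markers were left out. These were cells with 2 or more UMIs of B cell, neutrophil, epithelial or T/NK markers, which removed 30, 53, 64 and 84 cells.

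Apoe was at 1903 CPM in Combination, 5.70 times Control (interval 4.79 to 6.83) and below PolyIC. Acp5, a lysosomal phosphatase, was at 115, 178, 317 and 527 CPM in the 4 libraries, Trem2 at 22.1, 49.1, 103 and 83.0 CPM, and 9 of 22 genes of lipid handling and lysosome were higher and 1 lower. That gene, the scavenger receptor Cd36, was at 90.8, 66.0, 32.8 and 23.01 CPM. Tmem119, a membrane protein known from microglia, was at 7.36, 24.5, 40.4 and 65.7 CPM. Rtp4, an interferon-induced chaperone of receptors, was at 46.6, 59.8, 88.3 and 117 CPM, highest in Combination, as was Ms4a4c.

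**Figure D3:**
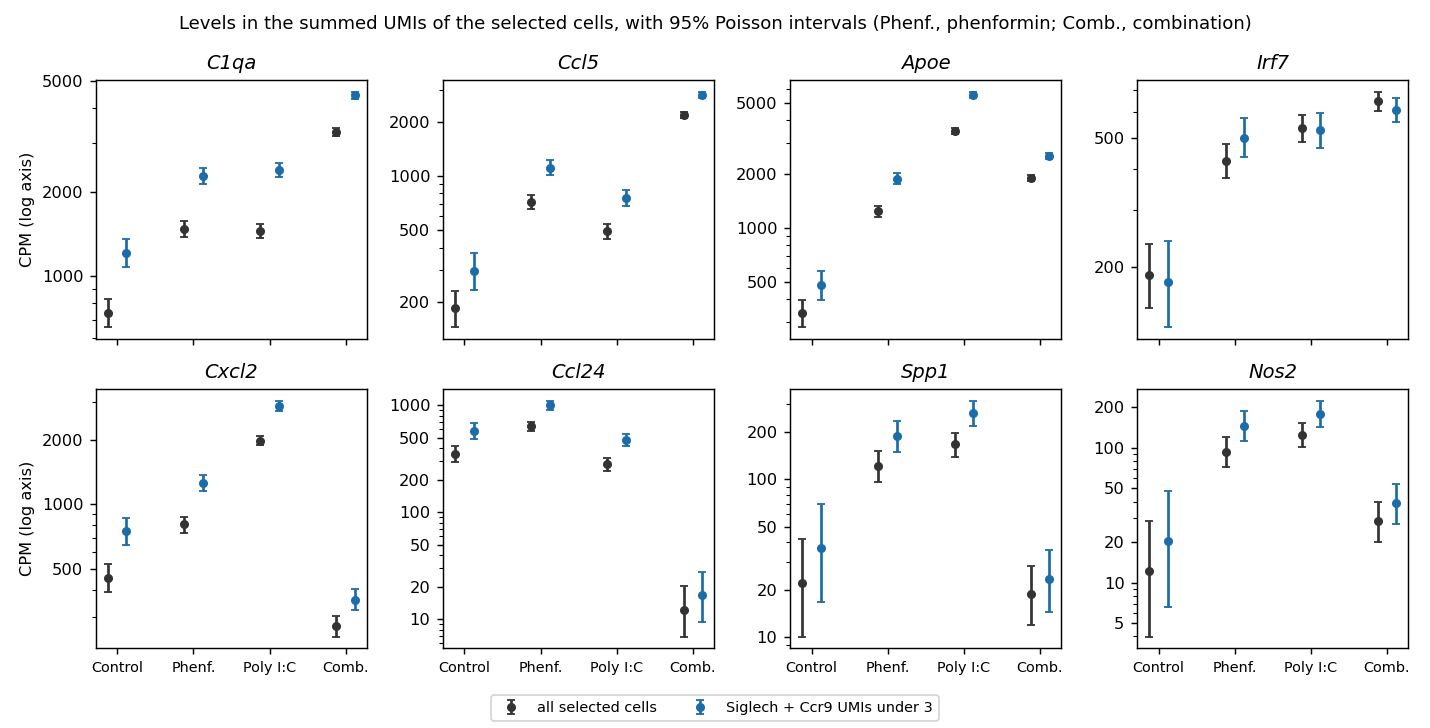
Each panel gives the CPM of 1 gene (vertical log axis) in the summed UMIs of the chosen cells of the 4 libraries (horizontal axis), for all of them and for those with under 3 UMIs of Siglech and Ccr9. Bars are 95% Poisson intervals of the counts. C1qa and Ccl5 are highest in Combination at 3297 and 2173 CPM, Apoe and Cxcl2 in PolyIC at 3488 and 1981 CPM, and Ccl24 is lowest in Combination at 12.3 CPM.

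Lower in Combination than in Control were 5 of 10 genes of classical monocytes, with none higher. Itga4, an integrin chain, was at 221 CPM in Control and 80.5 in Combination, and Ccr2 at 206 and 102 CPM. Of the inflammatory and NF-kB list, 3 of 11 genes were higher and 2 lower (median log2 ratio -0.10), and 1 of 12 higher and 3 lower in cells without Siglech. Tnfaip3, the NF-kB inhibitor A20, was at 110 and 40.3 CPM, and Nfkb1 at 268 and 140 CPM. Ccl24, the chemokine eotaxin-2, was at 351 CPM in 12 Control cells, 1 of which held 64% of the UMIs, and at 12.3 CPM in 5 Combination cells. Ly6d was at 1831 and 610 CPM, and its UMIs lay almost wholly in cells with Siglech, which were 37.0% of the cells in Control and 30.1% in Combination. CPM follow summed UMIs, of which those cells held 162670 of 407399 in Control and 320371 of 1217110 in Combination. Within them Ly6d was at 4586 and 2313 CPM. The part of that UMI share in the difference was not tested.

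Combination against PolyIC holds poly I:C fixed and adds phenformin. Of 3225 genes, 147 were higher (4.56%) and 166 lower (5.15%), and in cells without Siglech 211 of 2896 were higher (7.29%) and 141 lower (4.87%). Inflammatory genes and neutrophil-drawing chemokines were lower with phenformin, and Ccl5, the C1q chains and Cd81 were higher. The inflammatory list had 7 of 14 genes lower and none higher (median log2 ratio -0.50 beside 0.04 over all genes), and the chemokine list 8 of 14 lower and 1 higher (median -0.62, and 0.12 without the limits on the other macrophage genes). The 1 higher chemokine was Ccl5, at a ratio of 4.41 (interval 3.96 to 4.91).

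Cxcl2 had a ratio of 0.136 (interval 0.121 to 0.154), and 0.190 without the top cell of each library. Cxcl3 had no UMI in Combination and 132 CPM in 10 PolyIC cells. Nos2 was at 28.8 CPM in Combination against 125 in PolyIC, Irg1 at 28.8 against 121 CPM, and Il1rn, the interleukin 1 receptor antagonist, at 158 against 296 CPM. All of these were also lower in cells without Siglech. Spp1 was at 18.9 against 167 CPM, Cd9, a tetraspanin, at 82.2 against 240 CPM, and Apoe at 1903 against 3488 CPM, so 6 of 22 genes of lipid handling and lysosome were lower and 1 higher.

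Single genes of other roles also stood lower in Combination than in PolyIC. Hilpda was at 78.1 against 334 CPM, Slc7a11, the cystine transporter, at 56.7 against 159 CPM, and Hmox1 at 159 against 431 CPM, in an iron and heme list with 1 of 7 genes higher and 1 lower. Of glycolysis and hypoxia genes, 4 of 18 were lower and none higher. Jun was at 71.5 against 211 CPM, and Dnajb1 at 50.1 against 138 CPM, and the Dnajb1 ratio in cells without Siglech was 0.913 (interval 0.540 to 1.58).

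Higher in Combination were C1qa, C1qb and C1qc, at ratios of 2.27, 2.37 and 2.37. Cd81, a tetraspanin, was at 215 against 44.2 CPM, and Clec4b1, a C-type lectin, at 51.8 CPM in 25 cells against 5.05 CPM in 2. Of the SLAM family and the partners of Cd72, 2 of 5 genes were higher and none lower: Cd48, a SLAM ligand, at 138 against 80.7 CPM, and Slamf8, a relative of Slamf9 in macrophages, at 58.3 against 29.0 CPM. Oasl1, an interferon-stimulated gene, was at 104 against 69.4 CPM, a call lost without the Siglech cells (ratio 1.35, interval 0.939 to 1.96) and with TMM scaling (1.48). It was 1 of 20 interferon-stimulated genes higher, with 1 lower. Of nuclear complex I genes 1 of 36 was higher, Ndufc2, at 354 against 216 CPM.

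Combination against Phenformin holds phenformin fixed and adds poly I:C. Of 3347 genes, 175 were higher (5.23%) and 301 lower (8.99%), and with TMM scaling 245 were higher and 214 lower. In cells without Siglech 206 of 2826 were higher (7.29%) and 278 lower (9.84%). Ccl5 had a ratio of 3.02 (interval 2.74 to 3.34), and C1qa, C1qb and C1qc of 2.23, 2.08 and 2.20. Ccl6 was at 93.7 against 41.4 CPM, Igtp at 100.2 against 43.0 CPM, and Nupr1, a stress-induced chromatin protein, at 158 against 59.8 CPM. Ftl1, the ferritin light chain, was at 7011 against 4394 CPM and Rtp4 at 117 against 59.8 CPM. In the interferon list 4 of 23 genes were higher and 1 lower, and in cells without Siglech 2 of 24 higher and 4 lower.

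Lower in Combination than in Phenformin were inflammatory genes. The inflammatory list had 5 of 12 genes lower and none higher, among them Nos2 (28.8 against 93.6 CPM), Il1rn (158 against 324 CPM) and Tnfaip2 (106 against 241 CPM). Fn1 was at 3.29 against 62.9 CPM, a call lost without the top cell of each library, and Spp1 at 18.9 against 121 CPM. Thbs1, thrombospondin 1, was at 66.6 against 158 CPM. Without cells that carried other cell types' markers, which left 10 Phenformin cells, its ratio was 3.69 with an interval that takes in 1 (0.958 to 31.6). Ccl24 was at 12.3 against 641 CPM, from 15 Phenformin cells of which 1 held 48% of the UMIs. Fcgr2b, the inhibitory IgG receptor, was at 307 against 638 CPM, Hif1a at 237 against 365 CPM and Vegfa at 122 against 190 CPM. With TMM scaling Hif1a and Vegfa lost their calls, at ratios of 0.687 and 0.680. Of classical monocyte genes, 6 of 11 were lower and 1 higher.

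**Figure D4:**
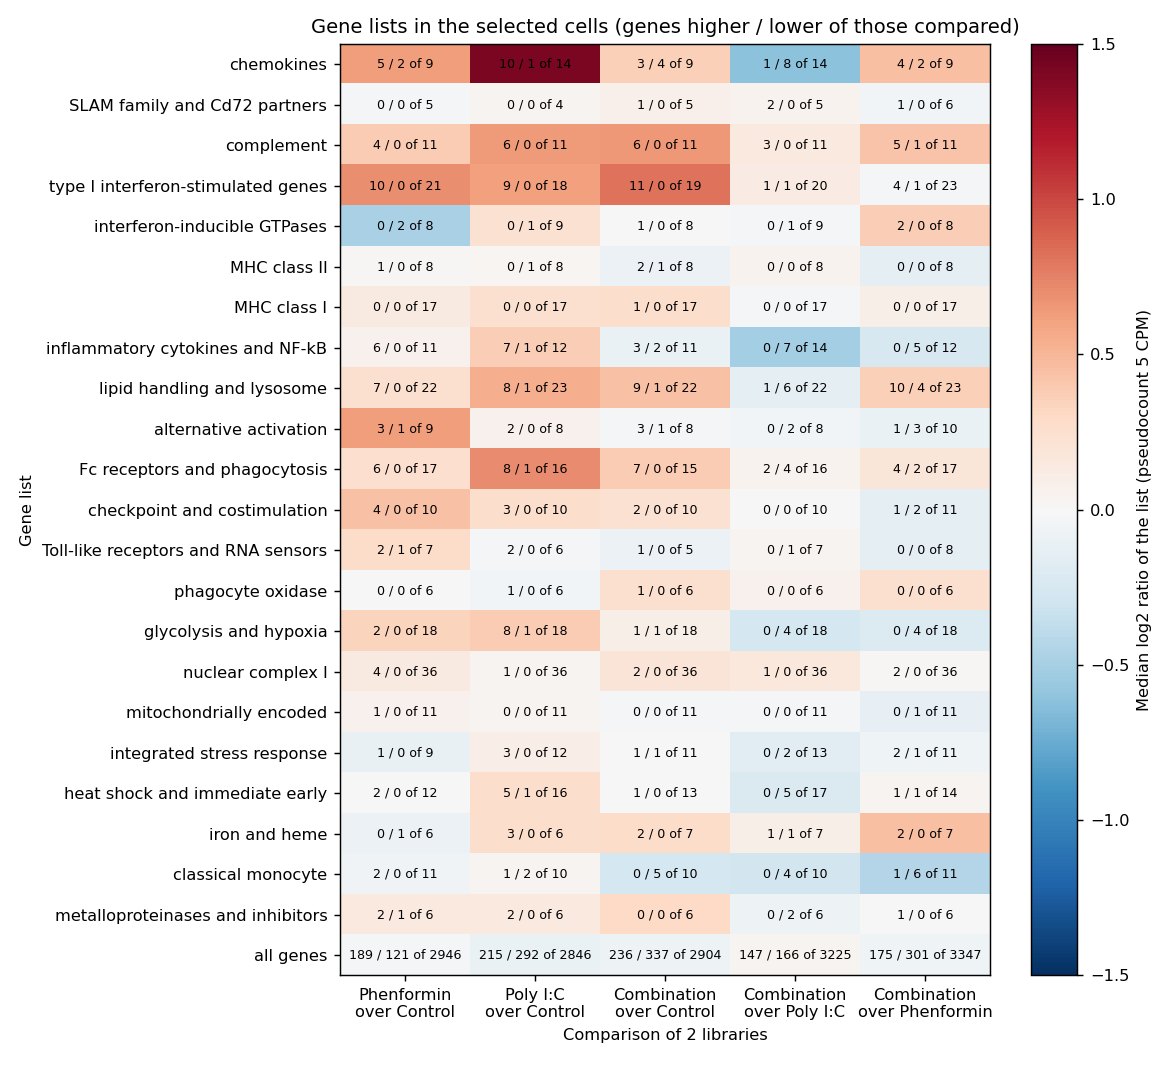
Rows are gene lists and columns are comparisons of 2 libraries, with colour for the median log2 ratio of a list (pseudocount of 5 CPM) and text for the number of its genes higher and lower of those compared. Interferon-stimulated genes have 10, 9 and 11 genes higher and none lower over Control in the first 3 columns. Chemokines are at 10 higher and 1 lower in PolyIC over Control and at 1 higher and 8 lower in Combination over PolyIC.

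The 2 by 2 layout gives each agent's difference in 2 pairs of libraries that share no library. For poly I:C, 39 genes were higher both in PolyIC over Control and in Combination over Phenformin, 18.1% of the first list and 22.3% of the second, and 52 were lower in both (17.8% and 17.3%). Over all genes compared, 7.55% were higher and 10.3% lower in PolyIC over Control, and 5.23% and 8.99% in Combination over Phenformin. The 39 include C1qa, C1qb, C1qc, Apoe, Ccl5, Acp5, Trem2, Cxcl10, Irf7, Rtp4 and Chil3. In cells without Siglech 27 genes were higher in both (13.8% and 13.1% of the lists) and 33 lower in both (19.6% and 11.9%). Over all genes compared in those cells, 10.3% were higher and 8.87% lower in the first pair, and 7.29% and 9.84% in the second. Of the genes named, Apoe, Trem2, Irf7 and Rtp4 were not among the 27. Another 21 of the 215 genes higher without phenformin were lower with it, among them Cxcl2, Nos2, Spp1, Thbs1, Il1rn and Slc7a11. As a part of the 215 they were near the 8.99% lower over all genes compared in Combination over Phenformin. In cells without Siglech this pattern held 28 of 195 genes, beside 9.84% lower over all genes, and Il1rn was not among them.

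For phenformin, 12 genes were higher in both Phenformin over Control and Combination over PolyIC (6.35% and 8.16% of the lists), including C1qa, C1qb, C1qc, Ccl5, Acp5 and Oasl1. Another 6 were lower in both (4.96% and 3.61%): Cd69, Clint1, Ets1, Hmox1, Mrc1 and Plet1. Over all genes compared, 6.42% were higher and 4.11% lower in Phenformin over Control, and 4.56% and 5.15% in Combination over PolyIC. The genes lower in both were thus near the share over all genes, and those higher in both not far above it. Without the top cell of each library Mrc1 had no call in either pair, and without the limits Hmox1 stood at 1.24 in Phenformin over Control. More genes took opposite directions: of the 189 higher with phenformin alone, 32 were lower when it was added to poly I:C, beside 5.15% over all genes. Among the 32 were Apoe, Ccl24, Nos2, Spp1, Il1b, Cxcl2, Thbs1 and Clec4n. Of these, Ccl24 (0.337 without the deepest 10% of cells), Il1b (0.673 with thinning) and Thbs1 (0.641 without the limits) turned in Phenformin over Control. With the cells that carried Siglech left out, 11 were higher in both (6.25% and 5.21% of the lists) and 4 lower in both (4.65% and 2.84%). Over all genes compared in those cells, 8.88% were higher and 4.34% lower in Phenformin over Control. In Combination over PolyIC these shares were 7.29% and 4.87%, so neither number was above the share over all genes. Acp5 and Oasl1 were not among the 11. That opposite pattern held 32 of 176 genes there. Acp5, C1qa, C1qb, C1qc and Ccl5 were called higher in all 5 comparisons, which share libraries; these 5 genes were picked out after their values were seen. Of them, C1qa in PolyIC over Control went to 0.920 (interval 0.759 to 1.12) without cells carrying other markers, and Ccl5 in Phenformin over Control to 0.610 with thinning.

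Cells with Siglech and Ccr9 were also compared between treatments on their own. Phenformin over Control had 42 of 1190 genes higher (3.53%) and 53 lower (4.45%), and PolyIC over Control had 193 of 1503 higher (12.8%) and 103 lower (6.85%). Chemokines were higher in PolyIC in 8 of 9 cases, heat shock and immediate early genes in 9 of 13 and Fc receptor and phagocytosis genes in 8 of 10, with none lower. These PolyIC cells also carried the highest macrophage transcripts of the 4 libraries, with Csf1r at 61.6 CPM against 0 to 24.6 CPM and Apoe at 496 CPM against 107 to 156 CPM, and the neutrophil gene S100a9 at 1773 CPM, 87% of it in 1 cell. The part of those transcripts in the PolyIC differences was not tested.

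Combination over Control had 111 of 1434 genes higher (7.74%) and 102 lower (7.11%) in these cells. Combination over PolyIC had 96 of 1979 higher (4.85%) and 173 lower (8.74%), and Combination over Phenformin had 99 of 1645 higher (6.02%) and 73 lower (4.44%). Against PolyIC, heat shock and immediate early genes were lower in 9 of 13 cases and genes of glycolysis and hypoxia in 9 of 14, with none higher. Irf7, which these cells use to start interferon production, had ratios over Control of 2.69 in PolyIC (interval 1.84 to 4.02) and 3.69 in Combination (interval 2.56 to 5.49).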

How the data were processed

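RNA of CD45-enriched cells from mouse tumours was sequenced in 4 single-cell libraries. Each deposited table gives unnormalised UMI counts for every feature in every barcode. The submitters' processing notes name Cell Ranger 3.1.0 and the builds mm10 and GRCm38. The members and the gene lists were chosen with earlier results of these data known. Cells were selected on raw counts, and counts were summed over the chosen cells of a library and divided by their total to give CPM, with exact Poisson intervals. Ratios of 2 libraries carry exact conditional intervals, and shares carry exact Clopper-Pearson intervals, at 95%. List medians use log2 ratios with a pseudocount of 5 CPM over genes with at least 20 CPM in any of the 4 libraries. Treatments were compared without a test, as each is 1 library. The computation of ratios was tested on simulated data. Named genes are, per comparison, the 10 highest and 10 lowest called by log2 ratio, leaving out the genes of the rule, gene models named by number, ribosomal, globin, immunoglobulin and T cell receptor genes, plus up to 4 called genes of each list and Cd72, Slamf9 and Cxcl13. Doublets were called with Scrublet in scanpy 1.11.5 and not removed. Other tools were Python 3.11.15, numpy 2.4.6, scipy 1.17.1, pandas 2.3.3, R 4.3.3 and edgeR 4.0.16 (TMM factors only). Alternatives covered the cell filter, doublets, the threshold on Cd72 and Slamf9, thinning to 5000 UMIs, the limits, cells with other markers, scaling, weighting, the deepest cells and the filter on low values, and the 2 kinds of cells and the top cell per gene were added after seeing the data.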

Additional observations from a re-analysis of the deposited data

Results flagged for a closer look

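Several genes were called in opposite directions in the 2 pairs of libraries that give an agent's difference, which share no library; none of these differences was tested. For poly I:C, Nos2 stood at a ratio of 10.2 in PolyIC over Control and 0.307 in Combination over Phenformin, and Spp1 at 7.54 and 0.156. Of 215 genes higher in PolyIC over Control, 21 were lower in the other pair, near the 8.99% lower over all genes compared there. For phenformin, the ratios in Phenformin over Control and in Combination over PolyIC were 3.73 and 0.545 for Apoe, 2.95 and 0.611 for Clec4n, and 4.02 and 0.397 for Thbs1. Those of Nos2 were 7.63 and 0.230, and those of Spp1 were 5.49 and 0.113. The first Thbs1 ratio turned to 0.641 without the limits on the other macrophage genes. Ccl24 stood at 1.83 and 0.0440, the first of which turned to 0.337 without the deepest 10% of cells, with 64% of its Control UMIs, 48% of its Phenformin UMIs and 69% of its PolyIC UMIs in 1 cell each.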

How the results depend on the processing

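No paired analysis was possible because each treatment is 1 library with no replicate number. The shares of chosen cells in Control, Phenformin, PolyIC and Combination were 0.476%, 0.715%, 0.710% and 1.15% without Siglech and Ccr9 and 0.279%, 0.440%, 0.544% and 0.496% with them. They were 1.20%, 1.58%, 1.87% and 2.09% at a threshold of 2 UMIs of Cd72 and Slamf9, and 0.361%, 0.568%, 0.680% and 1.19% at 5. With no limits they were 6.66%, 9.35%, 12.3% and 12.6%, and without cells carrying other markers 0.263%, 0.183%, 0.287% and 0.629%. Thinning to 5000 UMIs moved the Combination share to 2.54%. The 310, 507, 573, 313 and 476 genes called in Phenformin, PolyIC and Combination over Control, in Combination over PolyIC and in Combination over Phenformin became 617, 1008, 1074, 726 and 950 with no filter on low values. They became 161, 251, 269, 133 and 224 at 100 CPM and 60 UMIs, and 36, 196, 212, 73 and 179 with no limits. Without cells carrying other markers, the first 3 counts were 159, 228 and 253 and the last 270. With thinning the first 3 were 114, 176 and 265. In cells with Siglech they were 95, 296 and 213, and 172 in Combination over Phenformin; in cells without Siglech, Combination over Control had 374. PolyIC over Control had 852 at a threshold of 2 UMIs, and Phenformin over Control 477 with a mean over cells.

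Some directions turned or were lost, and the cause was not tested. The interferon list's median log2 ratio in Phenformin over Control was -0.0444 in cells with Siglech and -0.0713 with no limits, and in PolyIC over Control -0.20 with thinning. The chemokine median was -0.00951 in PolyIC over Control and 0.12 in Combination over PolyIC with no limits. With no limits, ratios in Phenformin over Control were 0.944 for Fn1, 0.641 for Thbs1, 0.727 for Rsad2, 1.07 for Iigp1 and 1.24 for Hmox1. In PolyIC over Control they were 0.807 for Ccl2, 0.839 for Il1b, 0.943 for Ifih1 and 0.766 for Hspa1b, and Slamf8 stood at 0.836 in Combination over PolyIC and Ccl6 at 0.814 in Combination over Phenformin. With thinning, Ccl5 and Il1b stood at 0.610 and 0.673 in Phenformin over Control, Il1b at 0.630 in PolyIC over Control and S100a9 at 2.23 in Combination over PolyIC. Ccl24 was at 0.337 in Phenformin over Control without the deepest 10% of cells. Without cells carrying other markers C1qa was at 0.920 in PolyIC over Control and Thbs1 at 3.69 in Combination over Phenformin. Oasl1 was at 0.993 in Combination over PolyIC at a threshold of 2 UMIs, and Hif1a at 1.0011 in Combination over Phenformin in cells with Siglech. For several of these the interval took in 1, so the difference was lost and not turned. They were Fn1 (0.874 to 1.02), Iigp1 (0.974 to 1.17), Ifih1 (0.821 to 1.09) and C1qa (0.759 to 1.12). The others were Thbs1 without cells carrying other markers (0.958 to 31.6), Oasl1 (0.769 to 1.28) and Hif1a (0.610 to 1.66). Control, with 46 cells, limits the precision of each ratio over it.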
